A study of Saccharomyces cerevisiae with 6 samples.

Results

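The genes described here encode the enzymes that attach ubiquitin to histone H2B or remove it, and the subunits of the Paf1 complex, on which that attachment depends. They are *RAD6*, *BRE1*, *LGE1*, *UBP8*, *UBP10*, *PAF1*, *RTF1*, *CTR9*, *LEO1* and *CDC73*. They were listed by name for these roles, with earlier results of these data known. Each is read by 1 probe set, so the 10 genes are 10 of the 5498 probe sets, for 5449 genes, that were tested. RNA came from 3 cultures expressing H2B K37A (strain YKG007, plasmid pKG2), in which alanine replaces lysine 37, and 3 expressing wild-type H2B (strain YKG001, plasmid pZS145). All were grown at the same time in YPD, a rich glucose medium, to mid-exponential phase at an OD600 of 1.0, and each was read on its own Affymetrix Yeast Genome 2.0 array. Both strains are MATa, lack both chromosomal H2A-H2B gene pairs, replaced by LEU2 and TRP1, and carry leu2D1, ura3-52, lys2D1, lys2-128d, his3D200 and trp1D63. Their only H2A and H2B come from a HIS3 plasmid with HTA1 and Flag-tagged HTB1, so the wild-type cells are themselves an engineered strain with tagged H2B. The purpose of the arrays was to ask whether lysine 37 contributes to transcription across the genome.

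In budding yeast the ubiquitin-conjugating enzyme Rad6 and the RING-finger ligase Bre1, with its partner Lge1, place a single ubiquitin on a lysine in the C-terminal helix of H2B, mostly on transcribed genes. The Paf1 complex travels with RNA polymerase II and is needed for this reaction, its Rtf1 subunit acting most directly. Ubp8, within the coactivator SAGA, and Ubp10, which acts outside SAGA and also at silenced chromatin, take the ubiquitin off again. H2B ubiquitin is in turn needed for methylation of histone H3 by COMPASS, the Set1 complex, and by Dot1.

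Values are log2 signals after RMA, the normalization the authors applied, so a difference of 1 is a 2-fold change, and values of different genes cannot be set against each other. All 10 genes lay above 6.29, the 95th percentile of probe sets named for genes outside the *S. cerevisiae* gene table (the array also holds fission yeast genes), the lowest single value being 8.09. The mean signal of 98.4% of all tested probe sets also lay above this level. Array medians over the tested probe sets were 11.05 to 11.10. Across probe sets, which are no independent replicates, Pearson's r was 0.994 to 0.998 between H2B K37A arrays, 0.997 to 0.998 between wild-type arrays and 0.984 to 0.996 between strains. *HTB1* had 14.43, 14.43 and 14.39 on the H2B K37A arrays and 14.47, 14.49 and 14.48 on the wild-type arrays, a log2 difference of -0.06 (adjusted p = 0.239 from limma). The signal of a transcript does not tell which amino acid it encodes, so this does not check the genotype. *HTB2*, the other H2B gene, is deleted in both strains and still gave 10.50 ± 0.10 in H2B K37A cells and 10.49 ± 0.11 in wild-type cells (SD, n = 3 each). The 7 MATa-specific genes looked at had signals of 9.05 to 13.54, *MF(ALPHA)1* of MATalpha cells lay below the background level at 5.60 to 5.85, and the 3 other MATalpha genes lay above it, at 7.78 to 10.39. A signal above the background level therefore does not show that a gene is transcribed. The *LGE1* signals, 8.09 to 8.32, lay within the range of those 3 genes.

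Among the 10 genes only *UBP10* passed the test. It was higher in H2B K37A cells by 0.36 on the log2 scale, a ratio of 1.29. *BRE1* and *LGE1*, both of the ligase, had ratios of 1.16 and 1.11 with adjusted p-values just above the threshold of 0.05. *RAD6*, *UBP8* and the 5 Paf1 complex genes had ratios between 0.940 and 1.05. The test was limma with Benjamini-Hochberg adjustment over all tested probe sets, and it called 14.5% of these, 6.44% higher and 8.08% lower in H2B K37A cells, so that 1 of 10 genes is near the share found for any genes. The median log2 difference of the 10 genes was 0.04, against 0.0020 over all tested probe sets.

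**Figure D1:**
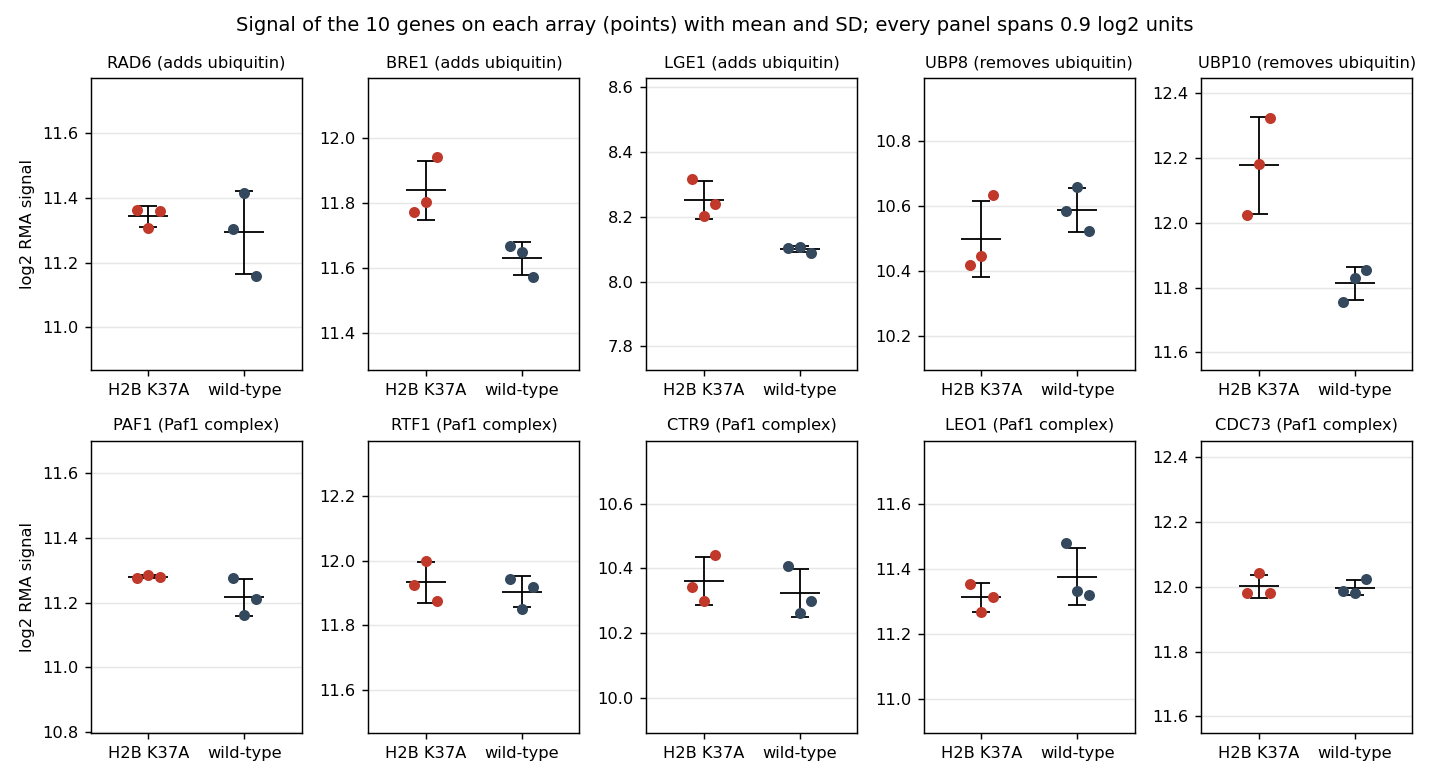
Log2 RMA signal (vertical axis) of each of the 10 genes on the 3 H2B K37A arrays (red, left) and the 3 wild-type arrays (blue, right), replicates 1 to 3 from left to right, with the mean and SD in black and the same vertical span in every panel. *UBP10*, *BRE1* and *LGE1* have all H2B K37A points above all wild-type points, *PAF1* does so by only 0.0011, and the other 6 genes overlap.

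*RAD6* (YGL058W) encodes the ubiquitin-conjugating enzyme, which also serves in DNA repair and protein degradation. Its signals were 11.36, 11.31 and 11.36 in H2B K37A cells and 11.31, 11.42 and 11.16 in wild-type cells. The groups overlapped, and the wild-type arrays spread more widely (SD 0.13, n = 3) than the H2B K37A arrays (SD 0.03, n = 3). The log2 difference was 0.05 (standard error, SE, 0.07, with an adjusted p of 0.640 in limma), with a 95% interval of the ratio from 0.926 to 1.16.

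*BRE1* (YDL074C) encodes the ligase that directs Rad6 to H2B. It had 11.77, 11.80 and 11.94 in H2B K37A cells and 11.67, 11.65 and 11.57 in wild-type cells. Every mutant array was above every wild-type array, with a gap of 0.10 between the nearest, and the mutant value of replicate 3 was the highest of the 6. The log2 difference was 0.21 (SE 0.06 and limma adjusted p = 0.0534), a ratio of 1.16 with a 95% interval from 1.05 to 1.27.

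*LGE1* (YPL055C) encodes the protein that works with Bre1 and was named for the large cells of its mutants. Its signals were 8.32, 8.20 and 8.24 in H2B K37A cells and 8.11, 8.11 and 8.09 in wild-type cells. Again the groups did not overlap, the wild-type arrays lying within an SD of 0.0095 (n = 3) and the mutant arrays within an SD of 0.06 (n = 3). The log2 difference was 0.15 (SE 0.04 and limma adjusted p = 0.0530), a ratio of 1.11 with a 95% interval from 1.04 to 1.19.

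The ligase genes thus gave 0 calls of 3 in limma, and 2 of 3 at an unadjusted p under 0.05, both higher in the mutant, while 35% of all tested probe sets reached that p and 16.9% did so with a higher value in the mutant. The calls of *BRE1* and *LGE1* turned with the scaling of the arrays and with how the variance was modelled. With each array centred on its median the limma adjusted p was 0.0375 for both. With a variance trend over signal intensity it was 0.0378 for *BRE1* but 0.139 for *LGE1*, whose SE rose from 0.041 to 0.066. Across the settings tried the adjusted p ranged from 0.0139 to 0.135 for *BRE1* and from 0.0309 to 0.139 for *LGE1*. Set against *RAD6* on the same array, *BRE1* was higher by 0.16 on the log2 scale in the mutant (two-sided p = 0.2 by an exact permutation test, n = 3 per strain) and *LGE1* by 0.10 (p = 0.3 by the same exact test). In both measures the arrays of the strains overlapped, and 3 arrays against 3 cannot give an exact p below 0.1. These comparisons between genes, and the one of *UBP10* with *UBP8*, were chosen after the values had been seen.

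*UBP10* (YNL186W) encodes a ubiquitin protease that acts on H2B, in particular near silenced regions, and also on RNA polymerase I. It had 12.03, 12.18 and 12.32 on the H2B K37A arrays and 11.76, 11.83 and 11.85 on the wild-type arrays. Every mutant array exceeded every wild-type array, with a gap of 0.17, and the mutant cultures varied more (SD 0.15, n = 3) than the wild-type cultures (SD 0.05, n = 3). The gene rose by 0.36 on the log2 scale in H2B K37A cells (SE 0.08 and limma adjusted p = 0.0336), a ratio of 1.29 with a 95% interval from 1.13 to 1.46. For its size, this difference exceeded those of 92.4% of all tested probe sets. The median change among the probe sets called was 1.24-fold.

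*UBP8* (YMR223W) encodes the ubiquitin protease of SAGA. It had 10.42, 10.44 and 10.63 in H2B K37A cells and 10.58, 10.66 and 10.52 in wild-type cells. The groups overlapped, since mutant replicate 3 lay among the wild-type values. The log2 difference was -0.09 (SE 0.07 and limma adjusted p = 0.398), and the 95% interval of the ratio ran from 0.839 to 1.05. On the same array, *UBP10* set against *UBP8* was higher in the mutant by 0.45 on the log2 scale, a ratio of 1.37, and its SD was 0.07 over mutant and 0.09 over wild-type cultures. All 3 mutant arrays exceeded all 3 wild-type arrays in this measure (exact permutation test, two-sided p = 0.1).

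**Figure D2:**
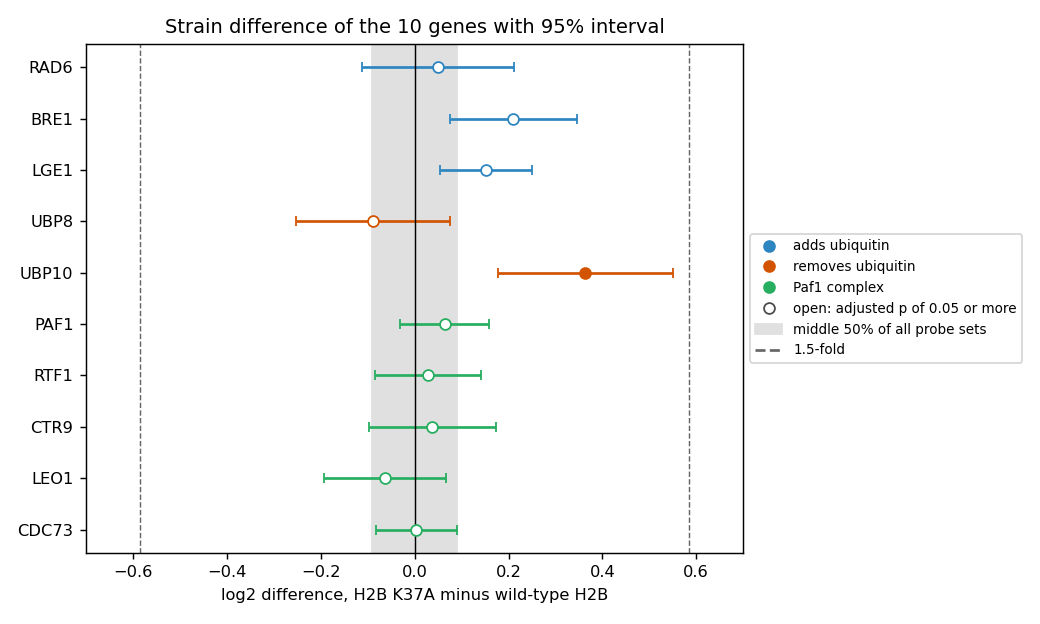
Log2 difference, H2B K37A minus wild-type H2B (horizontal axis), of each of the 10 genes with its 95% interval from limma, coloured by role. Filled points passed an adjusted p of 0.05, the grey band is the interquartile range of all tested probe sets and the dashed lines mark 1.5-fold. Only *UBP10* is filled, and no interval reaches a dashed line.

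The 5 Paf1 complex genes had log2 differences between -0.06 and 0.06. *PAF1* (YBR279W), which gives the complex its name, had 11.28, 11.28 and 11.28 in H2B K37A cells and 11.27, 11.16 and 11.21 in wild-type cells. The groups did not overlap, but by only 0.0011, and the log2 difference was 0.06 (SE 0.04 and limma adjusted p = 0.297). *RTF1* (YGL244W), the subunit that stimulates Rad6 and Bre1, had 11.92, 12.00 and 11.88 in H2B K37A cells and 11.94, 11.85 and 11.92 in wild-type cells. These values overlapped, and the log2 difference was 0.03 (SE 0.05 and limma adjusted p = 0.704).

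*CTR9* (YOL145C), a large subunit rich in tetratricopeptide repeats that holds the complex together, had 10.34, 10.30 and 10.44 in H2B K37A cells and 10.41, 10.26 and 10.30 in wild-type cells, with a log2 difference of 0.04 (SE 0.06). *LEO1* (YOR123C), which forms a pair with Paf1, had 11.36, 11.27 and 11.31 in H2B K37A cells and 11.48, 11.33 and 11.32 in wild-type cells, with a log2 difference of -0.06 (SE 0.05). *CDC73* (YLR418C), the counterpart of human parafibromin, had 11.98, 12.04 and 11.98 in H2B K37A cells and 11.99, 11.98 and 12.02 in wild-type cells. Its log2 difference of 0.0033 (SE 0.04) was the nearest to 0 of the 10 genes, and it changed sign, to -0.010, when the arrays were quantile normalized again. None of these 3 genes separated the strains.

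Of the 5 Paf1 complex genes, 0 passed in limma, with adjusted p-values of 0.297 to 0.960, and 0 had an unadjusted p under 0.05. Their 95% intervals together spanned ratios from 0.874 to 1.13. A change of 1.2-fold in either direction lay outside the interval of every Paf1 complex gene. Over the 10 genes, 8 had an interval within 1.2-fold, *BRE1* and *UBP10* being the exceptions, against 59.6% of all tested probe sets. All 10 had an interval within 1.5-fold, against 92.1%. The 2-fold cutoff of the study's methods was thus outside the interval of each of these genes. With each array's *ACT1* subtracted, the reference of the study's RT-qPCR, the log2 differences were 0.37 for *UBP10*, 0.22 for *BRE1* and 0.16 for *LGE1* (two-sided p = 0.1 for each by an exact permutation test, n = 3 per strain). The remaining 7 lay between -0.08 and 0.07, and among them *PAF1* also reached p = 0.1 by the exact test. That is the smallest p this exact test can give with 3 arrays against 3. *ACT1* itself differed by only -0.0097 between strains, so subtracting it changed the differences little.

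In all, 4 of the 10 genes, *UBP10*, *BRE1*, *LGE1* and *PAF1*, had arrays that did not overlap between strains, each with the higher values in H2B K37A cells, and none was separated in the other direction. Over all tested probe sets the groups did not overlap for 42.1%, 20.6% higher and 21.5% lower in the mutant. The arrays also differed in the level of other genes. The mean log2 signal of 25 stress genes under Msn2 and Msn4, centred on the 6 arrays, was -0.05, -0.14 and -0.38 on H2B K37A arrays 1 to 3 and 0.30, 0.17 and 0.10 on wild-type arrays 1 to 3. Of the 25 genes, 11 were called lower and 0 higher in the mutant, while 8.08% of all tested probe sets were called lower. The mean of 26 ribosome biogenesis genes was 0.01, 0.10 and 0.24 on the H2B K37A arrays and -0.16, -0.08 and -0.11 on the wild-type arrays. Of these 26 genes, 6 were called higher and 0 lower, while 6.44% of all tested probe sets were called higher. *UBP10*, centred in the same way, had 0.03, 0.19 and 0.33 on the H2B K37A arrays and -0.24, -0.16 and -0.14 on the wild-type arrays. *BRE1* had 0.04, 0.07 and 0.21 on the H2B K37A arrays and -0.07, -0.09 and -0.16 on the wild-type arrays. *LGE1* had 0.14, 0.03 and 0.06 on the H2B K37A arrays and -0.07, -0.07 and -0.09 on the wild-type arrays. *UBP10*, *BRE1* and the ribosome biogenesis mean were highest on H2B K37A array 3, where the stress mean was lowest, whereas *LGE1* was highest on H2B K37A array 1. *UBP10* and the ribosome biogenesis mean were lowest on wild-type array 1, where the stress mean was highest. *BRE1* and *LGE1* were instead lowest on wild-type array 3, which had the lowest stress mean of the wild-type arrays. The part that the state of the cultures has in the *UBP10*, *BRE1* and *LGE1* values was not tested.

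**Figure D3:**
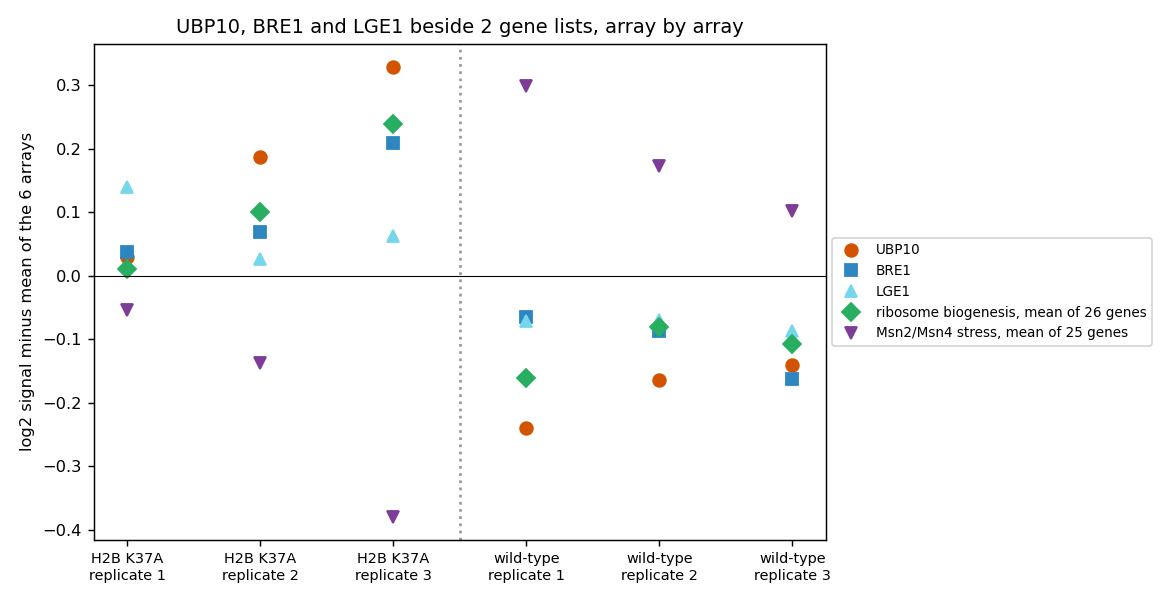
Log2 signal minus the mean of the 6 arrays (vertical axis) of *UBP10*, *BRE1* and *LGE1* and of the means of 26 ribosome biogenesis and 25 stress genes on each array, H2B K37A arrays left of the dotted line and wild-type arrays right of it. On H2B K37A array 3 *UBP10* is at 0.33 and the stress mean at -0.38, and on wild-type array 1 *UBP10* is at -0.24 and the stress mean at 0.30.

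The probe sets whose 6 array values were most like those of *UBP10* were *BFR2*, a ribosome biogenesis gene (Pearson's r = 0.9996 over the 6 arrays), *AQR1*, a plasma membrane multidrug transporter gene (r = 0.998), and *DPH6*, of diphthamide synthesis (r = 0.998). With 6 arrays in 2 groups and 5498 probe sets to choose from, such values are a description only. *BFR2* had 11.44, 11.70 and 11.93 in H2B K37A cells and 11.01, 11.13 and 11.20 in wild-type cells, a log2 difference of 0.58 (SE 0.12 and limma adjusted p = 0.0336). Like *UBP10*, it had its highest value on H2B K37A array 3 and its lowest on wild-type array 1.

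The *UBP10* call depended on which arrays were used. When 1 array was left out, the log2 difference stayed between 0.29 and 0.44. The adjusted p, however, passed 0.05 only without H2B K37A replicate 1 (0.0123) or H2B K37A replicate 3 (0.0450), and not without H2B K37A replicate 2 (0.116) or wild-type replicates 1 (0.101), 2 (0.104) or 3 (0.0790). In those 4 settings the number of all probe sets called also fell, to 7, 55, 2 and 135, against 798 with all arrays, and 3 of the 10 genes had an unadjusted p under 0.05 in each. Without H2B K37A replicate 3 and wild-type replicate 1 together, the arrays farthest apart in the stress mean, the *UBP10* difference was 0.26 (adjusted p = 0.0829), a setting added after the data were seen. When the limma fit and the adjustment both ran over all probe sets of the array, fission yeast and control sets included, *UBP10* had an adjusted p of 0.0643. Over all settings its adjusted p ran from 0.0052 to 0.116.

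**Figure D4:**
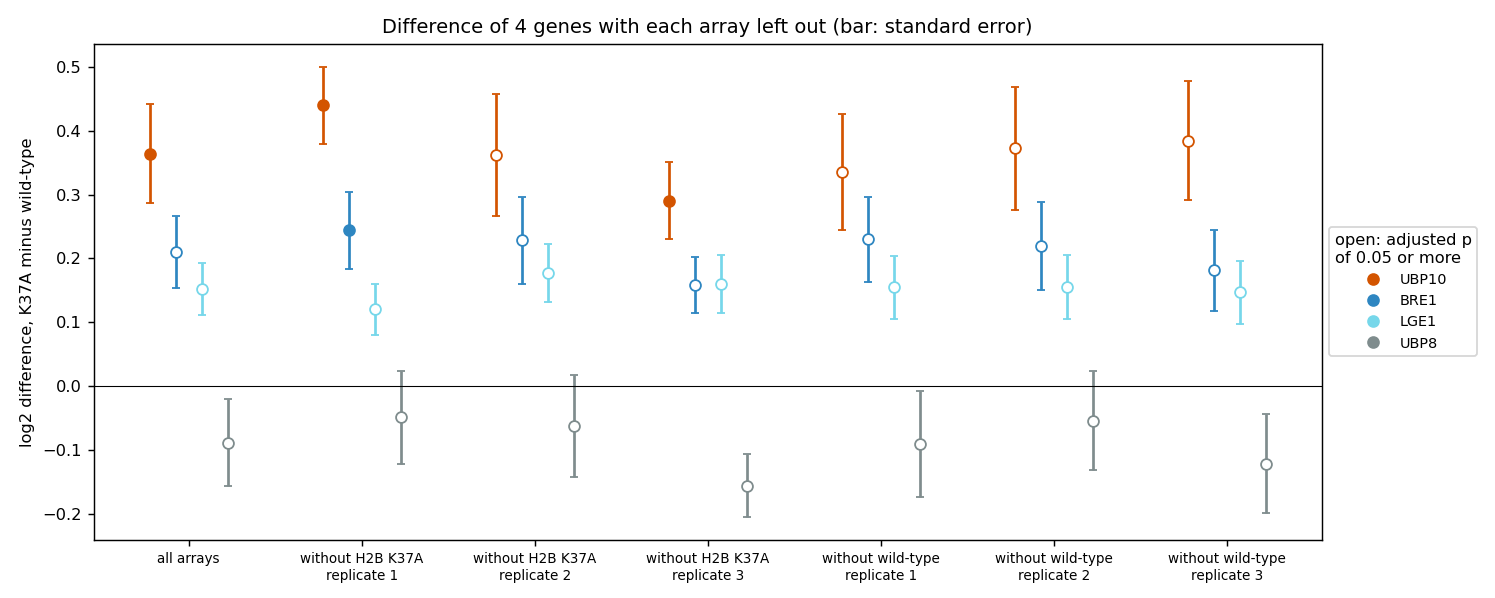
Log2 difference, H2B K37A minus wild-type H2B (vertical axis), of *UBP10*, *BRE1*, *LGE1* and *UBP8* with all arrays and with each array left out in turn, with the standard error from limma. *UBP10* keeps a difference of 0.29 to 0.44 and *UBP8* one of -0.16 to -0.05, while filled points, which passed an adjusted p of 0.05, are seen for *UBP10* in 3 of the 7 positions and for *BRE1* in 1.

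Genes that act beside these 10 were followed in 9 lists of 69 genes, of which 68 were measured. The 68 include *HTB2* and its paired H2A gene, which both strains lack. In the 9 lists 3 genes were higher in H2B K37A cells, 3 were lower and 62 did not pass, and the 6 called are 8.82% of those measured, against 14.5% of all probe sets. Of the 3 other genes of the SAGA deubiquitination module, 0 passed in limma and 2 had an unadjusted p under 0.05. These were *SGF11*, needed for Ubp8 activity, with a log2 difference of 0.15 (adjusted p = 0.0891), and *SGF73*, which tethers the module to SAGA, with 0.13 (adjusted p = 0.0821). *SUS1*, its small subunit shared with mRNA export, differed by -0.02. Of 5 genes for ubiquitin and its activating enzyme, 0 passed and 0 had an unadjusted p under 0.05. The polyubiquitin gene *UBI4* had the widest difference among them, at -0.10.

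Rad6 also serves ligases other than Bre1. *UBR1*, the ligase of the N-degron pathway, had 11.43, 11.47 and 11.46 in H2B K37A cells and 11.35, 11.24 and 11.31 in wild-type cells. It rose by 0.15 on the log2 scale in the mutant (SE 0.04 and limma adjusted p = 0.0497), at the edge of the threshold. *RAD18*, of DNA repair, and *UBR2* did not pass, with -0.07 and -0.06.

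Another list held 8 genes, of the kinases that prepare RNA polymerase II for the Paf1 complex and for elongation, and of Spt4-Spt5. All its log2 differences were positive, with a median of 0.11, while 2789 of 5498 were positive over all tested probe sets. At an unadjusted p under 0.05 in limma, 3 of the 8 were higher, against 16.9% of all. The adjusted p was passed by 1 of the 8, against 6.44% of all called higher. This was *CTK1*, the catalytic subunit of the kinase complex that phosphorylates the polymerase tail during elongation. *CTK1* had 10.17, 10.17 and 10.20 in H2B K37A cells and 10.02, 9.93 and 9.94 in wild-type cells, a rise of 0.21 on the log2 scale (SE 0.04 and limma adjusted p = 0.0252). Its partners *CTK2* and *CTK3* had 0.16 (adjusted p = 0.0599) and 0.09 (adjusted p = 0.114), and *SGV1* and *BUR2*, the kinase and cyclin through which the Paf1 complex is recruited, had 0.10 and 0.13 (adjusted p = 0.243 and 0.159). The genes named in this list besides *CTK1* were chosen after their values were seen.

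Downstream of H2B ubiquitin, 0 of 9 genes of COMPASS and Dot1 passed in limma and 1 had an unadjusted p under 0.05. That gene, *SET1*, the methyltransferase of COMPASS, had 11.36, 11.45 and 11.46 in H2B K37A cells and 11.37, 11.20 and 11.27 in wild-type cells. The values overlapped, with a log2 difference of 0.14 (adjusted p = 0.118). *DOT1* differed by -0.06 (adjusted p = 0.576). Of 6 genes of FACT, a histone chaperone helped by H2B ubiquitin, and of Spt6, 0 passed and 1 had an unadjusted p under 0.05, *NHP6B* with -0.15 (adjusted p = 0.130), whose second probe set gave -0.11. Of 8 histone genes measured, several of them close copies whose probes may share transcripts, 0 passed and 1, *HHT1*, had an unadjusted p under 0.05 with a log2 difference of 0.12 (adjusted p = 0.0570). The 8 include *HTB2* and its paired H2A gene, deleted in both strains, whose signals cannot come from those genes' own transcripts.

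The other ubiquitin proteases served as the relatives of *UBP8* and *UBP10*. Of 14 such genes 3 were lower, 0 higher and 11 did not pass, with a median of -0.12. Of all tested probe sets, 8.08% were called lower and 6.44% higher. *UBP9* had 9.84, 9.79 and 9.66 in H2B K37A cells and 10.11, 10.02 and 10.14 in wild-type cells, and fell by 0.33 on the log2 scale (SE 0.06 and limma adjusted p = 0.0264). *UBP7* fell by 0.26 (SE 0.06 and adjusted p = 0.0355) and *DOA4*, which recycles ubiquitin at endosomes, by 0.14 (SE 0.03 and adjusted p = 0.0353). At an unadjusted p under 0.05 in limma, 6 of the 14 were lower and 2 higher, against 994 lower and 929 higher of all 5498. The 2 higher genes were *UBP3*, with a log2 difference of 0.23 (adjusted p = 0.0529), and *UBP1*, with 0.16 (adjusted p = 0.132). For both every mutant array exceeded every wild-type array. For each of the 6 lower genes every mutant array lay below every wild-type array. Over all tested probe sets the arrays did not overlap for 20.6% with the mutant higher and 21.5% with the mutant lower. Whether *UBP10* differed from its relatives was not tested. Among 12 other genes of the E2 enzyme family, the relatives of *RAD6*, 1 was higher and 0 were lower. Not every enzyme of this family carries ubiquitin itself, since *UBC9* and *UBC12* serve ubiquitin-like proteins. This was *UBC11*, whose product resembles E2 enzymes of mitosis in other species, with 7.31, 7.54 and 7.67 in H2B K37A cells and 7.07, 7.17 and 7.20 in wild-type cells (log2 difference 0.36, SE 0.09 and limma adjusted p = 0.0493). The *UBC11* signals lay above the background level but below those of the 3 MATalpha genes named earlier, 7.78 to 10.39. They therefore do not show that *UBC11* was transcribed. The widest difference in the list was that of *UBC8*, at -0.39 (SE 0.11 and adjusted p = 0.0570), whose arrays did not overlap either. Of the 12 genes 9 had a negative difference, and at an unadjusted p under 0.05 there were 2 lower and 1 higher. With 1 array left out, *CTK1* and *UBP9* passed in 2 of the 6 settings, *UBP7* and *UBC11* in 1, and *UBR1* and *DOA4* in 0, each keeping its direction in all 6. The signals of *CTK1*, *UBP7* and *UBP9* lay within the range of the 3 MATalpha genes.

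**Figure D5:**
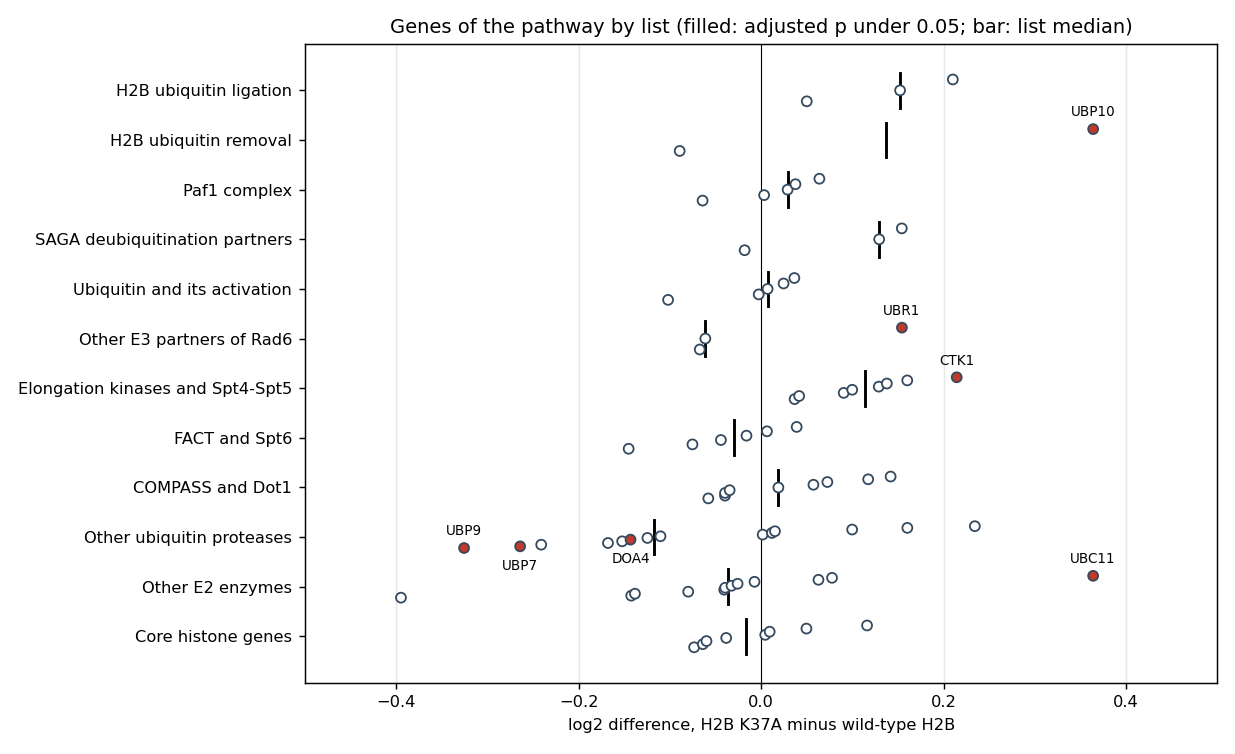
Log2 difference, H2B K37A minus wild-type H2B (horizontal axis), of every measured gene in the 3 role groups of the 10 genes (top) and the 9 lists of related genes, with the list median as a black bar. The 7 named and filled genes passed an adjusted p of 0.05 from limma, and all others did not.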

How the data were processed

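Values were deposited by the authors as log2 signals, computed by RMA (Affymetrix Expression Console), for 10928 probe sets on each of 6 arrays. RMA corrects background, gives all arrays the same distribution and summarises the probes of a set, so a shift shared by most transcripts cannot be seen. Tool versions and a genome build were not given in the sources used here. The labels name acid-extracted histones as the source but total RNA as the molecule, and RNA was assumed. Names came from the platform annotation by gene number, and 5498 matched the RefSeq gene table of assembly R64; 1746 more bear 1 name outside it, 1 bears several and 3683 bear none. None was removed for low signal. limma 3.58.1 in R 4.3.3 fitted strain as the only term, with Benjamini-Hochberg adjustment over the 5498 and two-sided p-values. The number of arrays, 3 per strain, limits the precision, and no 2 arrays were identical.

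The 10 genes, the lists and the tests were chosen with earlier results of these data known, so no count over them is independent evidence. Named besides the 10 are *HTB1*, *HTB2*, *ACT1*, list genes past the adjusted p (at most 4 a list) or, with none past it, the one with the largest difference, and the 3 probe sets most like the gene of smallest p. *SUS1*, *SGF73*, *RAD18*, *UBR2*, *DOT1*, *MF(ALPHA)1*, *UBP1*, *UBP3*, *UBC8*, *CTK2*, *CTK3*, *SGV1* and *BUR2* were added after their values were seen. Genes with 2 probe sets are given by the brighter. Same-numbered arrays were not treated as pairs, since the correlations of their deviations from the strain means were 0.40, -0.29 and 0.23. No sequences or coordinates were used here.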

Additional observations from a re-analysis of the deposited data

How the results depend on the processing

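The rise of *UBP10* kept its sign under every setting tried, and the differences of *BRE1*, *LGE1*, *UBP8*, *PAF1* and *LEO1* kept theirs. The number of the 10 genes past the adjusted p, 1 with all arrays, was 3 with arrays centred on their median, with quantile normalization again and with array weights, 2 with an intensity trend, and 0 when all probe sets were tested, with a further 1.5-fold or 2-fold cutoff, or without H2B K37A replicate 3 and wild-type replicate 1 together, and 0 to 2 with 1 array left out. The number of all probe sets past it, 798, was 281 when all were tested, 1956 with array weights, whose estimation stopped before convergence, 107 and 19 with the 1.5-fold and 2-fold cutoffs, 129 without the 2 arrays, and 2 to 1140 with 1 array left out. The 6 genes called in the related lists were 0, 19, 0, 0 and 1 in the same order, and 0 to 7 with 1 array left out. The number of the 10 genes whose strains did not overlap was 4 to 5 and their median log2 difference 0.02 to 0.07 with 1 array left out.

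With the replicate number as a block, 1 of the 10 genes and 947 probe sets passed, *UBP10* with an adjusted p of 0.0210 from limma, and no call among the 10 changed. Of the 6 genes called in the related lists, *UBR1* (adjusted p = 0.0785) and *DOA4* (0.0575) no longer passed with the block, and *CTK1*, *UBP7*, *UBP9* and *UBC11* did. The numbers are not known to mark pairs. Differences near 0 changed sign: *CDC73* was -0.010 with quantile normalization again, and with 1 array or both of those arrays left out *RAD6* ranged from -0.017 to 0.11, *RTF1* from -0.0045 to 0.077, *CTR9* from -0.0032 to 0.080 and *CDC73* from -0.017 to 0.016. Relative to *ACT1*, *RTF1* ranged from -0.00013 to 0.070 and *CDC73* from -0.0078 to 0.036. The cause of these changes was not tested.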
